A study of Mus musculus with 30 samples.

Results

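Vessel fragments from the cerebrum of mice that lack mouse Pdgfb were compared with those of mice that keep it, on 4 arrays a group. The 8 arrays were chosen by genotype and brain region, as the array titles give them, from the 30 arrays of a study of pericyte-poor brain vessels. R26P mutants are labelled Tie2Cre, R26P+/0, pdgfb-/-. They have no functional mouse Pdgfb gene and carry 1 copy of a human PDGF-B transgene at the Rosa26 locus, which the Cre recombinase driven by the Tie2 promoter switches on. R26P controls are labelled R26P+/0, pdgfb+/+ and carry the same transgene copy in its silent state. Both groups share the transgene copy and a mixed C57/SV129 background. The control label names no Cre, so the loss of mouse Pdgfb, the human transgene's expression and the presence of Cre cannot be told apart. The Tie2 promoter is known to be active in blood cells as well as in endothelium. The labels give 2 females and 2 males among the mutants and 3 females and 1 male among the controls. They contradict each other on age, which is 1 year in the titles and 2 months in another field.

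PDGF-B is made by endothelial cells and acts on PDGFR-beta, its receptor on pericytes and smooth muscle cells, together called mural cells. It recruits these cells to growing vessels, and mice with too little of it have few pericytes in the brain. Pericytes wrap brain capillaries, share their basement membrane, and are known to help keep the endothelium in its barrier state. A vessel fragment also holds end-feet of astrocytes and any cell attached to the wall, so RNA of several cell types reaches the array. In such mixed RNA, fewer cells of a type and less RNA per cell cannot be told apart.

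All values are log2 signals of 1 probe set per gene, so 1 unit is a doubling, and each difference is mutant minus control. The lowest value an array can take is 2.16. Of 18193 genes with a probe set of their own, 11242 were bright enough to test. Differences are given with their standard error (SE) and a p-value from limma's moderated two-sided test, adjusted over all 11242 genes by the Benjamini-Hochberg method. A gene is called at an adjusted p under 0.05, and "rose" and "fell" are used only of called genes.

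Pdgfb itself, probe set 1450414_at on chromosome 15, had signals of 4.73, 6.45, 8.01 and 4.73 in mutants, against 12.73, 12.86, 12.51 and 12.53 in controls. It fell by 6.68 ± 0.70 log2 units (adjusted p = 0.000789), the largest fall measured among tested genes. Mutant arrays 1 and 4 sat at the lowest value this probe set takes, and mutant array 3 was the brightest of its group. Whether the probe set reads the human transgene was not tested. Xist and the Y-linked genes Eif2s3y, Kdm5d and Uty matched the sex label on all 8 arrays. The mean over 8 endothelial marker genes lay between 12.83 and 13.06 on the mutant arrays and between 12.86 and 13.11 on the control arrays, and these ranges overlap. Over a longer list of 20 measured pan-endothelial genes, the mean was 13.185 to 13.411 on mutant arrays and 12.982 to 13.169 on control arrays. These ranges do not overlap. Markers of T cells and B cells (Cd3e and Cd79a) sat at or near the lowest value on all 8 arrays, and so did Gabra6 of cerebellar granule cells. Anpep, a further pericyte marker, and Hba-a1, a red cell marker, gave 2.16 on all 8 arrays and are therefore not informative here. Within groups, arrays correlated at 0.969 to 0.983 among the mutants and at 0.981 to 0.989 among the controls.

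Some arrays stood apart. Transcripts of pituitary hormones were bright on mutant arrays 2 and 3 and on control arrays 2 and 3, and dimmer on the others. Gh, growth hormone, had 4.40, 14.69, 14.89 and 2.90 on mutant arrays 1 to 4, against 4.83, 14.19, 14.58 and 2.66 on control arrays 1 to 4. The split is even between the groups. With these 4 arrays left out, 2 arrays a group remained and 237 genes were called. With the mean of Gh, Prl and Cga as a covariate the count was 1990.

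Over all genes, 2097 of 11242 were called, which is 18.7%. Of these, 939 (8.35%) rose and 1158 (10.3%) fell, while 3845 genes had an unadjusted p under 0.05. Without control array 1 the count was 1388, and leaving out any other array gave 1516 to 1944. The falls were larger than the rises. At least a 2-fold change was seen in 590 called genes that fell and in 230 that rose, together 7.29% of all tested genes. The median difference over all genes was 0.01. The groups did not overlap in 2909 genes, or 25.9%. When the arrays were instead centred on a list of pan-endothelial genes, the median over all genes was -0.20, and 398 genes rose and 2695 fell, or 12.9% and not 44.8% of calls upward. Small rises below therefore depend on the scaling, and list counts under this centring are given where they differ by over 1.5 times. List counts are to be read against the 8.35% and 10.3% of all tested genes that rose and fell.

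**Figure D1:**
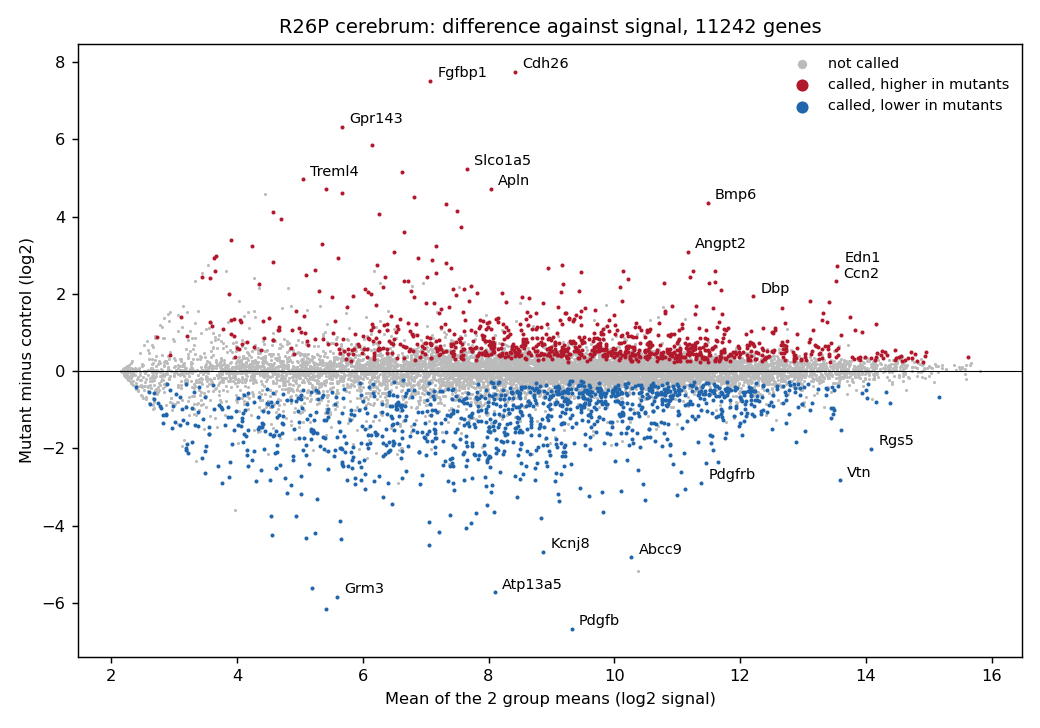
Mutant minus control difference (log2) of each of 11242 tested genes, against the mean of the group means (log2 signal); red points are genes called higher in mutants, blue points genes called lower, grey points genes not called. The largest falls, led by Pdgfb at -6.68, and the largest rises, led by Cdh26 at 7.75, lie well outside the grey cloud, and bright genes such as Rgs5, Edn1 and Ccn2 are among the called ones.

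Mural cell genes were prominent among the falls. Of 21 measured genes on a pericyte list, 20 fell and 0 rose, with a median of -3.08 against 0.01 over all genes. With 1 array left out, 19 or 20 were called lower, and 9 were with the 4 pituitary-bearing arrays left out. The exception was Foxf2, a transcription factor of brain pericytes, with 10.48 ± 0.19 in mutants and 10.48 ± 0.24 in controls (SD, n = 4 each). The mean over 7 pericyte markers was between 6.74 and 8.63 on the mutant arrays and between 11.72 and 11.98 on the control arrays. Mutant array 4 was the lowest and mutant array 3 the highest, and the groups were far apart.

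Both subunits of the pericyte KATP channel, which opens when ATP is low and hyperpolarises the cell, fell. Abcc9, the sulfonylurea receptor subunit (1435752_s_at), had 8.04, 7.94, 8.55 and 6.92 in mutants, against 12.68, 13.04, 12.62 and 12.39 in controls. That is a fall of 4.82 ± 0.33 log2 units, or 28.2-fold (adjusted p = 0.000139). Kcnj8, the pore subunit Kir6.1 (1418142_at), had 6.24, 7.57, 7.55 and 4.77 in mutants, against 11.23, 11.44, 10.99 and 11.20 in controls, a fall of 4.68 ± 0.59 log2 units (adjusted p = 0.00174). Every mutant array was lower than every control array for both subunits, and mutant array 4 was the lowest in each case.

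Grm3, a metabotropic glutamate receptor (1430136_at), had 2.69, 2.69, 2.74 and 2.52 in mutants, against 8.46, 8.71, 8.58 and 8.31 in controls. It fell by 5.85 ± 0.10 log2 units (adjusted p = 1.55e-07). Its 4 mutant values lay within 0.22 log2 units of each other, near the floor, so its spread in mutants was much smaller than that of Abcc9 or Kcnj8. Atp13a5, a P5-type ATPase used as a pericyte marker, had 5.48, 6.60, 6.32 and 2.56 in mutants, against 11.09, 11.34, 10.65 and 10.79 in controls, a fall of 5.73 ± 0.82 (adjusted p = 0.00311). Pla1a, a phospholipase, averaged 2.39 ± 0.09 in mutants and 8.00 ± 0.29 in controls and fell by 5.61 ± 0.14 (adjusted p = 1.02e-06). The uncharacterised transcript 5033404E19Rik, which fell by 6.17 ± 0.27 (adjusted p = 1.99e-05), had mutant values at or near the floor, so its fall is bounded by the floor.

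Receptors by which mural cells sense their surroundings fell together with these. Pdgfrb, the PDGF-B receptor, had 10.12, 9.95, 10.41 and 9.29 in mutants, against 12.80, 12.93, 12.82 and 12.76 in controls, a fall of 2.89 ± 0.22 (adjusted p = 0.000202). Notch3, the Notch receptor of mural cells, averaged 9.73 ± 0.55 in mutants and 12.14 ± 0.06 in controls and fell by 2.41 ± 0.25 (adjusted p = 0.000744), and its target Heyl fell by 3.08 ± 0.39 (adjusted p = 0.00173). Both stayed well above the floor in mutants, unlike Grm3. Cspg4, the proteoglycan NG2, fell by 3.64 ± 0.24 (adjusted p = 0.000139), and Cd248, endosialin, fell by 4.35 ± 0.35 (adjusted p = 0.000264). More G protein-coupled receptors fell. P2ry14, which binds UDP-sugars, fell by 3.81 ± 0.41 (adjusted p = 0.000874), Pth1r, the parathyroid hormone receptor, by 4.05 ± 0.40 (adjusted p = 0.000605), and Htr1b, a serotonin receptor, by 4.33 ± 0.35 (adjusted p = 0.000266). S1pr3, a receptor for sphingosine 1-phosphate, was bright in both groups with 9.39 ± 0.46 in mutants and 12.60 ± 0.08 in controls, and fell by 3.21 ± 0.21 (adjusted p = 0.000133).

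Some secreted and matrix-bound factors of mural cells fell as well. Angpt1, the ligand that activates the Tie2 receptor of endothelium, had 6.17, 6.17, 6.97 and 6.19 in mutants, against 8.31, 8.22, 8.11 and 8.07 in controls, and fell by 1.80 ± 0.19 (adjusted p = 0.000789). Nodal and Bmp5, ligands of the TGF-beta family, fell by 4.17 ± 0.46 and 3.88 ± 0.33 (adjusted p = 0.000959 and 0.000337). Vtn, vitronectin, an adhesive plasma and matrix protein, had 11.90, 12.51, 12.87 and 11.39 in mutants, against 15.11, 15.19, 14.84 and 14.85 in controls, and fell by 2.83 ± 0.30 (adjusted p = 0.000883). In controls Vtn was near the top of the scale, and in mutants it was still bright. Rgs5, a regulator of G protein signalling, likewise had 13.06, 13.39, 13.48 and 12.39 in mutants, against 15.07, 15.09, 15.09 and 15.13 in controls, a fall of 2.02 ± 0.22 (adjusted p = 0.000987).

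Nitric oxide is a signal by which endothelium relaxes mural cells. Gucy1b1 and Gucy1a1, the 2 subunits of the soluble guanylate cyclase that nitric oxide activates, fell by 3.35 ± 0.32 and 2.81 ± 0.21 (adjusted p = 0.000539 and 0.000209). Gucy1b1 had 7.18, 7.49, 8.28 and 6.84 in mutants, against 11.25, 10.89, 10.37 and 10.70 in controls. No mutant array reached a control array. Pde5a, which breaks down the cyclic GMP made by that enzyme, averaged 9.71 ± 0.42 in mutants and 11.41 ± 0.04 in controls and fell by 1.71 ± 0.19 (adjusted p = 0.00107). Nos3, endothelial nitric oxide synthase, fell by 0.40 ± 0.09 (adjusted p = 0.0195), a call that was lost without control array 3. Ddah1, which degrades an inhibitor of these synthases, rose by 2.31 ± 0.16 (adjusted p = 0.00017). On the whole list of endothelin, nitric oxide and other vasoactive genes, 5 of 19 rose and 6 fell, with a median of 0.11.

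Calcium and potassium handling followed the same direction. Of 15 genes of calcium signalling in mural cells, 12 fell and 0 rose, with a median of -1.96. Casq2, which stores calcium in the sarcoplasmic reticulum, had 7.23, 7.89, 8.43 and 6.45 in mutants, against 10.64, 10.72, 10.55 and 10.88 in controls, a fall of 3.20 ± 0.38 (adjusted p = 0.00144). Pln, phospholamban, which restrains the calcium pump, fell by 2.34 ± 0.25 (adjusted p = 0.000843). Ano1, a chloride channel opened by calcium, fell by 3.35 ± 0.28 (adjusted p = 0.000329) and averaged 8.82 ± 0.63 in mutants and 12.17 ± 0.10 in controls. Of 18 potassium channel genes, 8 fell and 1, Kcnq1, rose. Besides Abcc9 and Kcnj8, those that fell included Kcne4, an accessory subunit, at -2.72 ± 0.25 (adjusted p = 0.000464), and Kcnma1 and Kcnmb1, the pore and accessory subunits of the large-conductance calcium-activated channel, at -1.67 and -3.17 (adjusted p = 0.00821 and 0.000883).

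Contractile genes of smooth muscle fell as well. Of 19 measured genes on the smooth muscle list, 16 fell and 0 rose, with a median of -1.56. Myh11, smooth muscle myosin heavy chain, had 9.79, 9.93, 10.63 and 9.42 in mutants, against 12.07, 11.58, 11.60 and 12.05 in controls, a fall of 1.88 ± 0.26 (adjusted p = 0.00250). Cnn1, calponin, fell by 2.15 ± 0.44 (adjusted p = 0.0140), and its mutant array 3 at 7.48 came close to control array 3 at 7.72. Acta2, smooth muscle actin, averaged 14.84 ± 0.27 in mutants and 15.49 ± 0.15 in controls, and fell by 0.66 ± 0.15 (adjusted p = 0.0194), a call that was lost without any 1 of mutant arrays 1 and 2 and control arrays 1 and 4. The genes Smtn, Tpm1 and Synpo2 were not called, at -0.37, 0.55 and 0.43. Leaving out 1 array at a time, 12 to 16 members were called lower, and 6 were with the 4 pituitary-bearing arrays left out.

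Contractile genes are known to be driven by serum response factor through a motif called the CArG box. Promoters of the list, 250 bases before to 50 bases after a start site in RefSeq's GRCm38.p6 annotation, were searched for it on both strands. It was held by 2 of the 16 genes with a promoter entry, Myl9 and Ldb3, in 3 of the list's 17 promoters. Of all 32851 promoters in the table, 1.63% held it. Myl9 encodes the myosin regulatory light chain and fell by 1.54 ± 0.25 (adjusted p = 0.00501). Ldb3 encodes a protein of the contractile Z-disc and fell by 2.89 ± 0.28 (adjusted p = 0.000576). Their promoters are printed 5′ to 3′ with the match in capitals, Myl9 from chr2:156775214-156775513 on the plus strand and Ldb3 from chr14:34588632-34588931 on the minus strand. They show where the match lies in 2 genes that fell.
Myl9: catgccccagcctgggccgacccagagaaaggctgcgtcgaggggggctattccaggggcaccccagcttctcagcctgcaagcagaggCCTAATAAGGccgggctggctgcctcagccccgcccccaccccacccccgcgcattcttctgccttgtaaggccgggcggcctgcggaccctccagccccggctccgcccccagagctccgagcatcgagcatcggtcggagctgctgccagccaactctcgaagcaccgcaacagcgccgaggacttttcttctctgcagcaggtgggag
Ldb3: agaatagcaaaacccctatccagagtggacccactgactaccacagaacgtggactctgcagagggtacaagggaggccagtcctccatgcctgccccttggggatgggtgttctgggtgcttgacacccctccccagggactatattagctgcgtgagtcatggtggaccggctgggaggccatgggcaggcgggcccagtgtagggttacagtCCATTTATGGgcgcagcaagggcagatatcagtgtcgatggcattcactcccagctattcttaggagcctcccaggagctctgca
A match describes letters in this window only.

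The matrix around the vessel changed in part. Several basement membrane chains fell and others were not called. Lama2, a laminin chain made by mural and other non-endothelial cells, had 5.14, 5.08, 6.04 and 4.14 in mutants, against 9.05, 9.47, 8.75 and 8.81 in controls, a fall of 3.92 ± 0.37 (adjusted p = 0.000539). Col4a5 and Col4a4, minor collagen IV chains, fell by 2.69 ± 0.23 and 2.30 ± 0.63 (adjusted p = 0.000337 and 0.0402), and the Col4a4 call was lost when any of 6 arrays was left out. Lamc1, the gamma chain shared by many laminins, and Nid1, nidogen-1, which links laminin to collagen IV, fell by 1.93 ± 0.25 and 0.84 ± 0.12 (adjusted p = 0.00209 and 0.00284). The major chains Col4a1 and Col4a2 differed by 0.07 and 0.19, and Lama4, the chain of endothelial laminin, by 0.54, with none of the 3 called. Col18a1, the source of endostatin, rose by 1.11 ± 0.18 (adjusted p = 0.00501). Of 22 genes for laminins and other basement membrane proteins, 2 rose and 5 fell, and of 18 collagens 1 rose and 5 fell, with 1 to 3 lower when any 1 array but mutant array 3 was left out and 9 after centring on the pan-endothelial list.

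Receptors for this matrix also changed. Integrin chains Itga7, which binds laminin, and Itga8 fell by 2.83 ± 0.29 and 2.18 ± 0.28 (adjusted p = 0.000746 and 0.00200). Itgav, the alpha chain of vitronectin receptors, had 11.01, 10.86, 10.93 and 11.28 in mutants, against 12.22, 12.24, 12.22 and 12.14 in controls, and fell by 1.18 ± 0.10 (adjusted p = 0.000329). Itga6, a laminin receptor chain of endothelium, fell by 0.82 ± 0.12 (adjusted p = 0.00328), and Itga1, a collagen receptor chain, rose by 0.56 ± 0.10 (adjusted p = 0.00992). Htra1, a secreted protease, rose by 1.26 ± 0.11 (adjusted p = 0.000308). Of 15 integrin genes, 2 rose and 4 fell (1 and 7 after that centring), where 8.35% and 10.3% of all tested genes did.

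**Figure D2:**
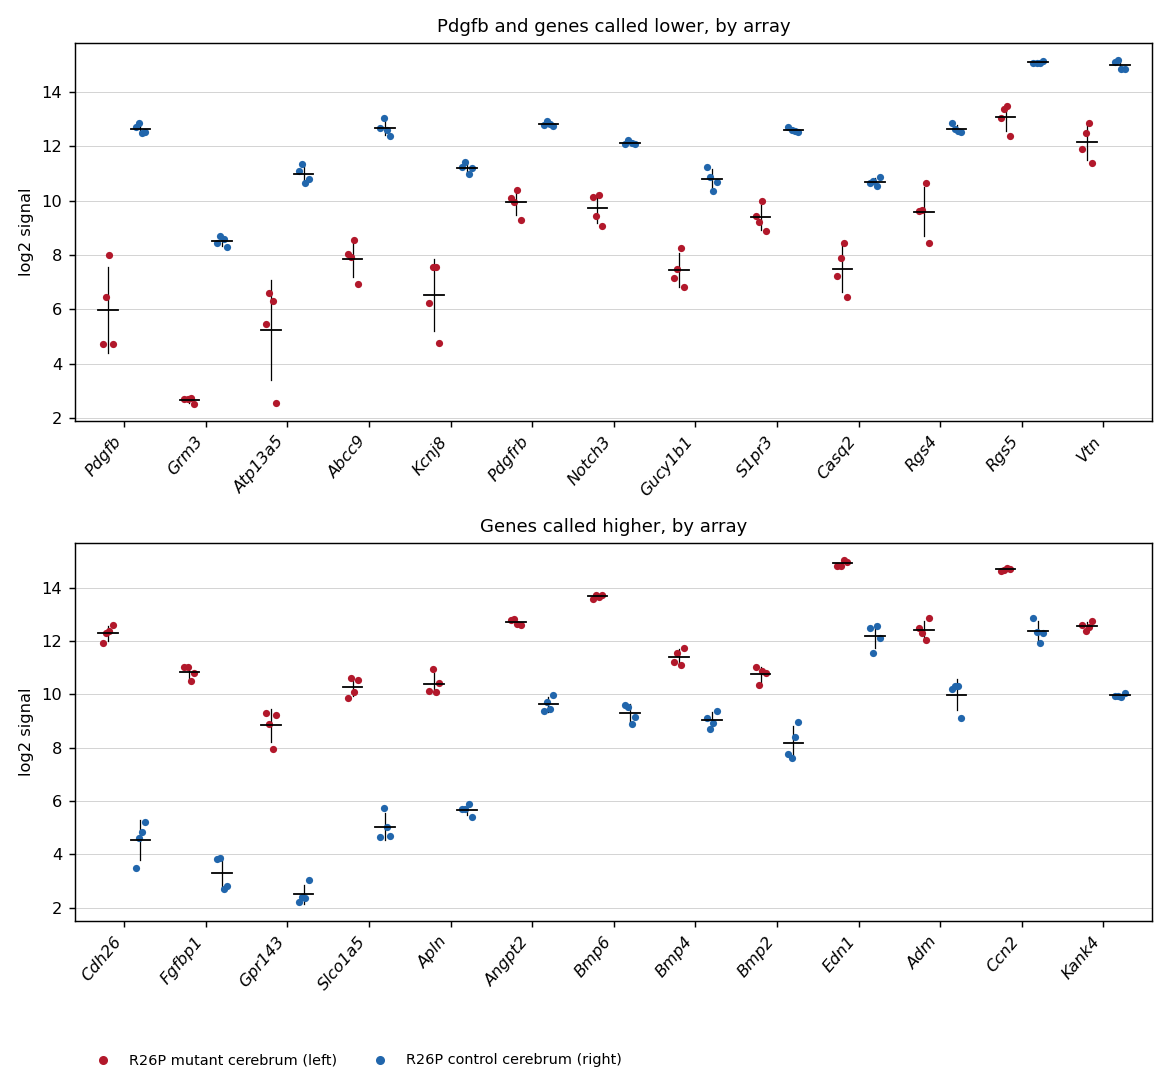
Signal (log2) on each R26P mutant cerebrum array (red, left of each pair) and each R26P control cerebrum array (blue, right) for Pdgfb with 12 genes called lower and for 13 genes called higher; horizontal lines are group means, vertical lines ± 1 SD, n = 4 a group. Groups do not overlap for any gene shown, which the rule that named many of them required and which holds for 25.9% of all tested genes. Grm3 sits near the floor in mutants, while Rgs5 and Vtn stay bright.

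Many genes of other cell types attached to the vessel wall fell. Of 19 astrocyte genes, 11 fell and 1, Glul, rose, with a median of -1.36. Slc1a2, the main glutamate transporter of astrocytes, had 9.64, 9.76, 9.83 and 9.81 in mutants, against 12.27, 12.51, 12.42 and 12.29 in controls, a fall of 2.62 ± 0.08 (adjusted p = 3.75e-06). Mlc1, a protein of the end-feet, fell by 3.72 ± 0.43 (adjusted p = 0.00126), and Aqp4, the water channel of the end-feet, by 1.84 ± 0.15 (adjusted p = 0.000266). The 4 mutant values of Slc1a2 spanned 0.19 log2 units, far less than the difference. Apoe and Clu, also expressed in astrocytes, differed by 0.09 and -0.48 and were not called, and Gfap was at or near the floor in both groups. Leaving out 1 array at a time, 8 to 13 astrocyte genes were called lower, and 3 were with the 4 pituitary-bearing arrays left out. After centring on the pan-endothelial list 15 were lower and 0 higher.

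Of 6 measured genes on a list for oligodendrocyte precursors, 4 fell, with a median of -1.80. Olig2, Gpr17 and Lhfpl3 of that list were too dim to test, and whether the falls come from such precursors was not tested. Bcan, brevican, and Ptprz1, a receptor phosphatase, fell by 2.10 ± 0.21 and 2.04 ± 0.18 (adjusted p = 0.00074 and 0.000337). Pdgfra, the receptor for PDGF-A in those cells and in fibroblasts, fell by 1.56 ± 0.34 (adjusted p = 0.0174), a call that was lost without control array 1. Of 16 perivascular fibroblast genes, 9 fell and 0 rose, with a median of -1.26, and 5 were lower without mutant array 2 or control array 1 and 14 after that centring. Slc6a13, a GABA transporter of these cells, fell by 2.45 ± 0.43 (adjusted p = 0.00778), while Dcn, decorin, differed by -0.47 and was not called. Col1a1 was at or near the floor on all 8 arrays. Of 9 neuron genes 2 fell, Map2 and Gad1 (4 after that centring), while Snap25, a synaptic protein, had -0.19 and was not called. How much each cell type's share of the fragment contributes to these differences was not tested.

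Among endothelial genes the changes were smaller and went both ways. Of 20 pan-endothelial genes, 7 rose and 1 fell, with a median of 0.23. The count of rises was 2 to 4 without any 1 of mutant arrays 1 to 3 and control arrays 1, 3 and 4, and 2 rose and 2 fell after centring on the list itself. Eng, endoglin, a co-receptor for BMPs, had 14.24, 14.67, 14.40 and 14.50 in mutants, against 13.34, 13.53, 13.48 and 13.37 in controls, a rise of 1.02 ± 0.10 (adjusted p = 0.000744). Flt1, a VEGF receptor, fell by 0.70 ± 0.13 (adjusted p = 0.0103). Pecam1, the adhesion protein CD31, had 9.91 ± 0.45 in mutants and 9.93 ± 0.34 in controls, and Cldn5, claudin-5 of the tight junction, had 15.67 ± 0.11 in mutants and 15.51 ± 0.07 in controls. Neither was called, with differences of -0.02 ± 0.25 and 0.17 ± 0.08.

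Many of the largest rises were in genes that were dim in controls. Cdh26, a cadherin (1456937_at), had 11.91, 12.28, 12.38 and 12.59 in mutants, against 3.48, 4.61, 4.86 and 5.21 in controls. It rose by 7.75 ± 0.35 log2 units, the largest rise of any tested gene (adjusted p = 2.32e-05). Fgfbp1, a secreted carrier that releases fibroblast growth factors from matrix (1419086_at), had 11.03, 11.01, 10.49 and 10.80 in mutants, against 3.83, 3.85, 2.71 and 2.84 in controls, a rise of 7.52 ± 0.30 (adjusted p = 1.02e-05). Mutant values of both genes were at or above 10.49, and no control array exceeded 5.21. Gpr143, a receptor known from pigment cells, rose by 6.33 ± 0.32 (adjusted p = 3.05e-05). Bst1, an ADP-ribosyl cyclase on the cell surface, rose by 5.86 ± 0.39 (adjusted p = 0.000139), and Hcar1, the lactate receptor, by 4.62 ± 0.42 (adjusted p = 0.000464). Epha3, an ephrin receptor, averaged 7.78 ± 0.77 in mutants and 3.07 ± 0.11 in controls and rose by 4.71 ± 0.35 (adjusted p = 0.00019).

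More genes of the fibroblast growth factor pathway fell than rose. Of 12 measured genes, Fgfbp1 rose, 7 fell and 4 did not pass, with a median of -0.69. Fgf1, a ligand, fell by 1.90 ± 0.21 (adjusted p = 0.00093), and Spry4, an inhibitor induced by the pathway, by 1.95 ± 0.25 (adjusted p = 0.00206). Dusp6, a phosphatase that switches off ERK and is induced by it, fell by 1.17 ± 0.16 (adjusted p = 0.00249). The count of falls was 3 without mutant array 2. Fgfr2 was called lower at -1.69 (adjusted p = 0.0188), a call that was lost without mutant array 1 and without mutant array 2.

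Several ligands that endothelium is known to release rose. Angpt2, the ligand that opposes Angpt1 at the Tie2 receptor (1448831_at), had 12.78, 12.83, 12.63 and 12.61 in mutants, against 9.36, 9.73, 9.43 and 9.97 in controls. It rose by 3.09 ± 0.14, or 8.50-fold (adjusted p = 2.32e-05). The Tie2 receptor gene, Tek, had 13.84 ± 0.13 in mutants and 13.94 ± 0.13 in controls and was not called, at -0.09 ± 0.10. Apln, apelin, a peptide of sprouting tip cells, had 10.14, 10.93, 10.07 and 10.43 in mutants, against 5.69, 5.72, 5.91 and 5.39 in controls, a rise of 4.72 ± 0.20 (adjusted p = 1.74e-05). Its receptor gene Aplnr differed by 0.38 ± 0.45 and was not called (adjusted p = 0.582). Adm, adrenomedullin, and Edn1, endothelin-1, peptides that dilate and constrict vessels, rose by 2.43 ± 0.31 and 2.72 ± 0.21 (adjusted p = 0.00174 and 0.000233). Edn1 had 14.82, 14.80, 15.04 and 14.96 in mutants, against 12.48, 11.56, 12.56 and 12.12 in controls, and the gene of an endothelin receptor, Ednrb, fell by 1.97 ± 0.26 (adjusted p = 0.00236).

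Angpt2, Apln and Adm are among 19 genes of a sprouting and tip cell list. Of these 4 rose and 4 fell, with a median of 0.05. Esm1 and Dll4, which mark tip cells, differed by -0.92 and -0.23 and were not called. Mcam, the adhesion protein CD146 of mural and endothelial cells, fell by 2.41 ± 0.32 (adjusted p = 0.00215), and Ramp3, which forms part of an adrenomedullin receptor, by 2.11 ± 0.22 (adjusted p = 0.000744). Vegfa, the ligand that drives sprouting, rose to 6.58 ± 0.33 in mutants, against 4.91 ± 0.31 in controls (adjusted p = 0.00160), which is a low signal in both groups. Its receptor Kdr differed by 0.06 and was not called.

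In the BMP branch 3 ligands rose, while Bmp5 fell as given above, and known targets went in both directions or were not called. Bmp6 (1450759_at) had 13.57, 13.72, 13.66 and 13.71 in mutants, against 9.60, 9.53, 8.90 and 9.16 in controls, a rise of 4.37 ± 0.16, or 20.6-fold (adjusted p = 6.17e-06). Bmp2 and Bmp4 rose by 2.56 ± 0.30 and 2.37 ± 0.19 (adjusted p = 0.00136 and 0.000264). The mutant arrays lay closely together for Bmp6, within 0.15 log2 units. Smad6, an inhibitor induced by BMP signals, rose by 2.28 ± 0.21 (adjusted p = 0.000469), and Bmper, a secreted BMP binder, by 4.11 ± 0.30 (adjusted p = 0.00019). Id1 and Id3, further BMP targets, differed by 0.13 ± 0.21 and 0.31 ± 0.14 and were not called. Id4, another target, was called lower (adjusted p = 0.0321), a call that was lost when any 1 of 6 arrays was left out. The receptor subunit Bmpr1a fell by 1.86 ± 0.22 (adjusted p = 0.00144), and Acvrl1, the endothelial receptor ALK1, differed by -0.06, not called. Of 31 genes of the BMP and TGF-beta list, 10 rose and 4 fell, with a median of 0.18, and 9 rose and 8 fell after centring on the pan-endothelial list.

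On the TGF-beta side, Tgfb2 rose by 2.11 ± 0.16 (adjusted p = 0.000202), while Tgfb3 was called lower at -1.63 ± 0.33 (adjusted p = 0.0139). Ltbp2, a matrix protein related to the carriers of TGF-beta, had 9.21, 8.26, 9.24 and 9.57 in mutants, against 2.68, 5.17, 4.71 and 5.73 in controls, a rise of 4.50 ± 0.63 (adjusted p = 0.00285). Ccn2, a matrix protein induced by TGF-beta and by YAP, had 14.63, 14.68, 14.74 and 14.68 in mutants, against 12.87, 12.33, 11.92 and 12.31 in controls, a rise of 2.33 ± 0.18 (adjusted p = 0.000233). Its 4 mutant values spanned 0.11 log2 units. Ajuba, a LIM protein of the Hippo pathway that controls YAP, and Kank4, an adaptor at the edge of cell adhesions, rose by 2.59 ± 0.15 and 2.59 ± 0.09 (adjusted p = 5.55e-05 and 6.17e-06).

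Transport genes of the blood-brain barrier went in both directions. Slco1a5, an organic anion transporter (1449203_at), had 9.88, 10.62, 10.08 and 10.52 in mutants, against 4.67, 5.76, 5.02 and 4.69 in controls, a rise of 5.24 ± 0.28 (adjusted p = 3.74e-05). Its relative Slco1a4 differed by 0.21 and was not called. Slco2a1, a prostaglandin transporter, rose by 1.35 ± 0.25 (adjusted p = 0.0101), and Slco3a1 fell by 2.30 ± 0.20 (adjusted p = 0.000337). Of 18 organic anion transporters and ABC pumps, 4 rose and 2 fell (3 and 5 after centring on the pan-endothelial list), and Abcb1a, the P-glycoprotein pump, differed by -0.06, not called. Slc16a1, the lactate carrier MCT1, averaged 11.98 ± 0.79 in mutants and 13.81 ± 0.15 in controls, a fall of 1.83 ± 0.36 (adjusted p = 0.0116). Slc2a1, the glucose carrier, averaged 14.97 ± 0.05 in mutants and 14.82 ± 0.13 in controls, a difference of 0.15 ± 0.08 that was not called (adjusted p = 0.247).

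Of 21 nutrient carriers, 2 rose and 6 fell, and of 20 junction genes, 1 rose and 4 fell. Over all tested genes 8.35% rose and 10.3% fell. Without any 1 of control arrays 2 to 4 the carriers that fell numbered 3, and without mutant arrays 2 or 4 or control arrays 1, 2 or 4 the junction genes numbered 1 or 2. Centring on the pan-endothelial list gave 11 carriers and 7 junction genes lower, and 1 carrier and 0 junction genes higher. Of 19 genes of transcytosis and caveolae, 8 fell and 0 rose, with a median of -0.24 (4 or 5 without any 1 array other than mutant arrays 3 and 4). Lrp8 and Lrp1, receptors that carry lipoproteins and other ligands, fell by 1.72 ± 0.26 and 1.83 ± 0.18 (adjusted p = 0.00361 and 0.000699). Insr, the insulin receptor, fell by 0.63 ± 0.13 (adjusted p = 0.0148). Mfsd2a, a lipid carrier known to restrain transcytosis, had 12.35, 11.74, 12.43 and 10.49 in mutants, against 13.08, 13.47, 13.28 and 13.21 in controls. It was called lower by 1.51 ± 0.40 (adjusted p = 0.0364), a call that was lost without any 1 of mutant array 2 and control arrays 1 to 4, and mutant array 4 was the lowest. Plvap, of fenestrated endothelium and also of pituitary vessels, was brightest on mutant arrays 2 and 3 (10.95 and 11.64) and was not called, at -0.17 ± 0.43. Cav1, caveolin-1, differed by 0.10 and was not called.

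**Figure D3:**
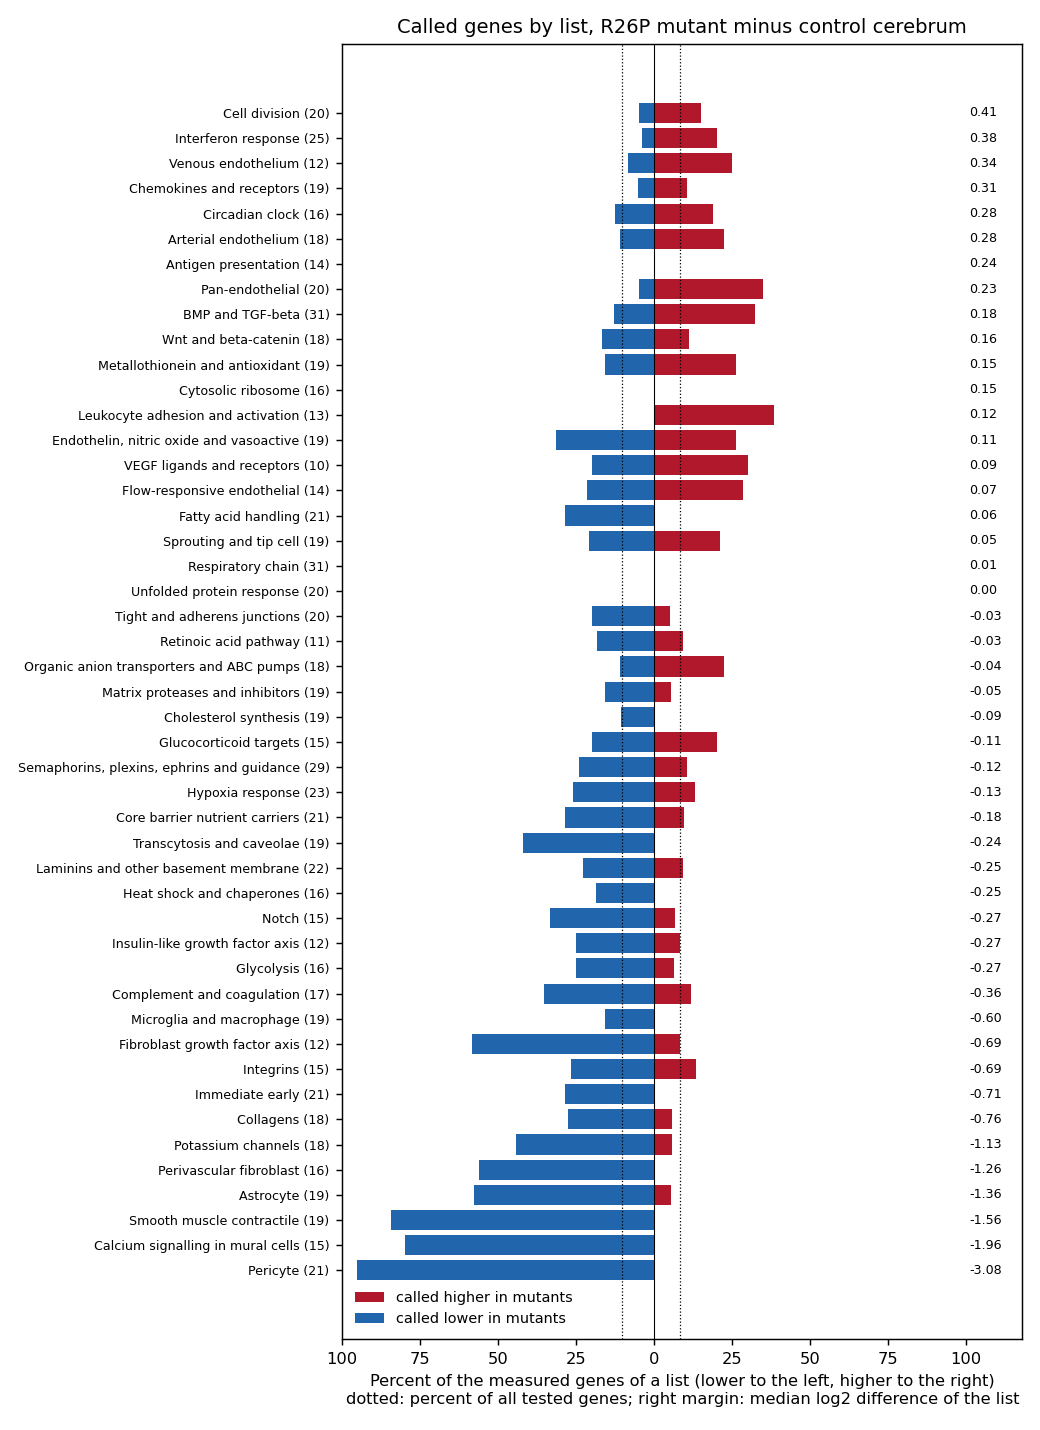
Share of the measured genes of each list (percent) called higher in R26P mutants (red, to the right) and called lower (blue, to the left), for lists with at least 10 measured genes, ordered by their median log2 difference, which stands in the right margin. Dotted lines mark the shares over all tested genes, 8.35% and 10.3%; the pericyte list has the lowest median and the largest share of falls, and 4 lists have no called gene.

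Some of the largest rises were genes known from white blood cells, and these were highest on 1 array. On the blood leukocyte list as a whole, 1 of 6 measured genes, Plac8, rose, 5 did not pass, the median was 0.18, and 13 of the list's 19 genes were too dim to test or not on the array. Treml4, known from mouse blood monocytes, had 6.92, 6.32, 7.44 and 9.44 in mutants, against 2.49, 2.49, 2.76 and 2.53 in controls, a rise of 4.96 ± 0.60 (adjusted p = 0.00144). Plac8, of blood leukocytes, had 8.82, 8.34, 8.36 and 11.28 in mutants, against 2.77, 3.50, 4.75 and 5.14 in controls, a rise of 5.16 ± 0.78 (adjusted p = 0.00397). Mutant array 4 was the highest for both, and the other 3 mutant arrays also lay above every control array. The rule that named these genes required groups that do not overlap, as was so in 25.9% of all tested genes. The same held for Cytip, which regulates leukocyte adhesion, at 4.15 ± 0.89 (adjusted p = 0.0166), for Adgre4, of the F4/80 family, at 4.08 ± 0.67 (adjusted p = 0.00583), and for Itgal, the alpha chain of LFA-1, at 3.40 ± 0.71 (adjusted p = 0.0147). All 5 stayed called without mutant array 4. Fpr2, a formyl peptide receptor, had 5.37, 3.92, 7.39 and 9.98 in mutants, against 2.66, 2.85, 2.66 and 2.72 in controls, and its call (adjusted p = 0.0494) was lost when any 1 of 6 arrays was left out.

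General leukocyte and macrophage genes did not follow. Ptprc, the pan-leukocyte protein CD45, had 10.34, 10.51, 10.64 and 12.52 in mutants, against 10.64, 9.96, 11.45 and 11.12 in controls, and was not called (adjusted p = 0.806). Of 19 genes of microglia and macrophages, 0 rose and 3 fell. They were Mrc1, Cd163 and P2ry12, and 0 or 1 of them was called without any 1 of mutant arrays 1 to 3 and control arrays 1, 3 and 4. Over 5 leukocyte markers, of which Plac8 was the 1 called and Cd3e and Cd79a sat at or near the floor, the mean was between 5.11 and 6.27 on the mutant arrays, highest on array 4, and between 4.02 and 4.87 on the control arrays. Whether such cells lay inside or outside the vessels cannot be read from these arrays. Cd247, a T cell receptor signalling chain, had 4.61, 4.93, 4.42 and 4.74 in mutants, against 2.38, 2.18, 2.17 and 2.17 in controls, a rise of 2.45 ± 0.12 (adjusted p = 2.65e-05), while Cd3e stayed at or near the floor.

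Some genes that endothelium uses to hold leukocytes rose. Of 13 genes of leukocyte adhesion and activation, 5 rose and 0 fell, with a median of 0.12, and 1 to 3 were higher without any 1 array other than mutant array 1. Alcam, an adhesion protein, rose by 0.91 ± 0.15 (adjusted p = 0.00563) and was the 1 gene still called higher after centring on the pan-endothelial list. Under that centring 1 gene of the list was called lower. Cx3cl1, the membrane-bound chemokine fractalkine, had 11.54, 12.04, 11.79 and 11.71 in mutants, against 10.14, 10.22, 9.90 and 10.03 in controls, a rise of 1.69 ± 0.12 (adjusted p = 0.000188). Ccl2 and Cxcl10, chemokines of inflamed vessels, differed by 0.31 and 1.30 and were not called. Of 25 interferon-response genes 5 rose and 1 fell, and 1 to 3 rose without any 1 array other than mutant array 2 and control array 2. After centring on the pan-endothelial list 1 rose and 2 fell. Gbp2, a guanylate-binding protein, rose by 0.69 ± 0.13 (adjusted p = 0.0110). Of 14 antigen presentation genes, 0 were called by limma, and 2 had an unadjusted p under 0.05.

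Genes of the circadian clock differed, with 1 control array apart from the others. The clock runs on Arntl, which with Clock activates genes through the E-box, among them Dbp, Ciart and the Per genes, whose products feed back on it. Dbp had 13.09, 13.80, 12.92 and 12.90 in mutants, against 10.71, 12.97, 10.48 and 10.78 in controls. It was called higher by 1.94 ± 0.54 (adjusted p = 0.0433), but control array 2 exceeded mutant arrays 3 and 4. Arntl, its activator, had 9.33, 8.68, 9.14 and 9.14 in mutants, against 10.50, 9.54, 10.74 and 10.74 in controls, and was called lower by 1.30 ± 0.28 (adjusted p = 0.0174). Control array 2 was the control nearest the mutants for both genes. The Dbp call was lost when any 1 of 7 arrays was left out, and the Arntl call without control array 1.

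Ciart, a repressor of the clock, was the clock gene whose call survived every omission of 1 array. It had 6.67, 7.39, 7.36 and 7.14 in mutants, against 5.53, 6.08, 4.66 and 4.27 in controls, a rise of 2.01 ± 0.39 (adjusted p = 0.0116). Per2 was called higher at 1.37 ± 0.33 (adjusted p = 0.0274), and Bhlhe40 was called lower at -1.34 ± 0.30 (adjusted p = 0.0188). The Per2 call was lost when any 1 of 6 arrays was left out, and the Bhlhe40 call without control array 1. Of 16 clock genes, 3 rose and 2 fell, with a median of 0.28, and 5 rose without control array 2, and 4 fell after centring on the pan-endothelial list. Per1, Cry1, Clock and Nr1d1 were not called, at 0.16, -0.31, -0.31 and 1.06. The labels give no time of day for any array.

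The E-box CACGTG was searched for on both strands in the RefSeq promoters of the clock list. It was found in 5 of 15 genes with an entry, Ciart, Per1, Cry1, Tef and Bhlhe41. By promoter, that is 6 of the list's 20, against 7.15% of all 32851 promoters. Bhlhe41 was too dim to be tested. Ciart held 3 copies, at 116, 58 and 44 bases before its start site, and is printed with them in capitals, 5′ to 3′, from chr3:95882179-95882478 of GRCm38.p6, minus strand.
Ciart: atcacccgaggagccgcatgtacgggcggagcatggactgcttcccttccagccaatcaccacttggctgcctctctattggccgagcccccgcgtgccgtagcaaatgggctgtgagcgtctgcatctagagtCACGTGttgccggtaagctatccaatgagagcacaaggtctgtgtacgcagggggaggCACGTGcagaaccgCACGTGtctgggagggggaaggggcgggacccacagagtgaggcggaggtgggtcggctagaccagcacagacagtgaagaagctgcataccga
Of the other 3 tested genes with the E-box, Per1, Cry1 and Tef, none was called, Tef differing by 0.86.

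**Figure D4:**
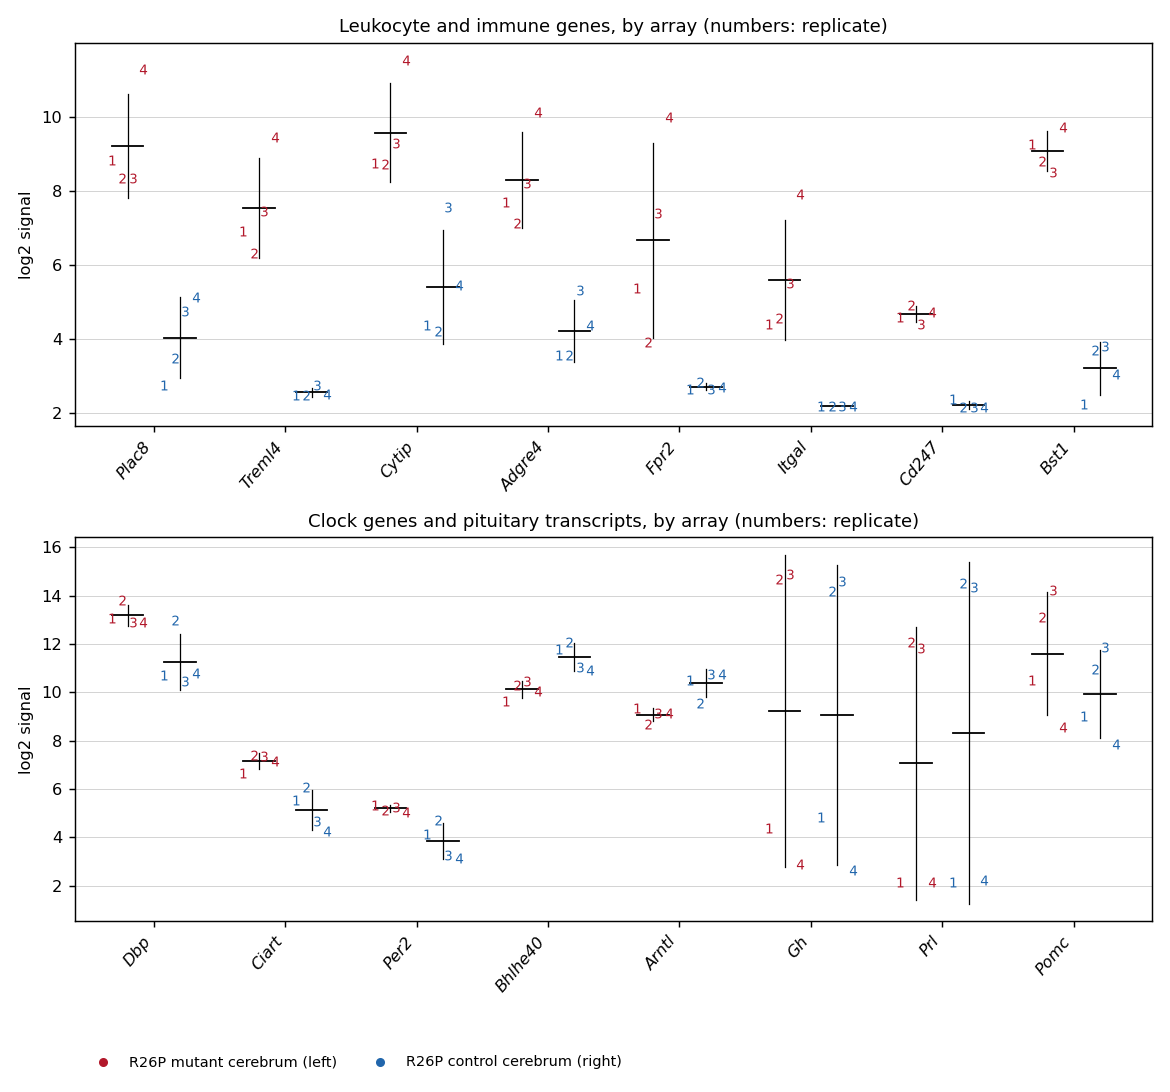
Signal (log2) of leukocyte and immune genes (upper plot) and of clock genes and pituitary transcripts (lower plot) on R26P mutant cerebrum arrays (red, left of each pair) and R26P control cerebrum arrays (blue, right), each array drawn as its replicate number; horizontal lines are means, vertical lines ± 1 SD, n = 4 a group. Mutant array 4 is the highest for Plac8, Treml4, Cytip, Adgre4, Fpr2, Itgal and Bst1, control array 2 lies nearest the mutants for Dbp and Arntl, and Gh and Prl are bright on arrays 2 and 3 of both groups.

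Among metabolic and housekeeping lists, limma called 0 genes among 31 genes of the respiratory chain (median 0.01), 16 of the cytosolic ribosome (median 0.15) and 20 of the unfolded protein response (median 0.00). At an unadjusted p under 0.05 there were 4, 1 and 3 of them. Centring on the pan-endothelial list made 5 genes of the respiratory chain and 5 of the unfolded protein response lower. Of 16 glycolytic genes, 4 fell (2 without control array 1 or control array 2, and 9 after that centring), and Pfkfb3, the enzyme that makes glycolysis run faster in endothelium, had 9.24, 9.65, 9.51 and 9.64 in mutants, against 8.05, 8.29, 7.93 and 7.74 in controls, a rise of 1.51 ± 0.14 (adjusted p = 0.000539). Pfkp, a phosphofructokinase, fell by 1.13 ± 0.13 (adjusted p = 0.00126). Of 23 genes of the hypoxia response, 3 rose, Vegfa and Adm among them, and 6 fell (2 or 3 without any 1 of mutant arrays 1 and 4 and control arrays 2 and 3, and 10 after that centring). Of 20 genes of cell division, 3 rose and 1 fell (2 and 2 after that centring), with 1 higher without control array 1 or control array 2. Over all tested genes 8.35% rose and 10.3% fell. Cdc20, which drives exit from mitosis, rose by 1.55 ± 0.19 (adjusted p = 0.00158), while Mki67 differed by 0.78 and was not called.

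Immediate early genes are induced quickly by a stimulus, tissue handling included. Of 21 measured, 6 fell and 0 rose, with a median of -0.71, and 2 or 3 fell without any 1 array other than mutant arrays 1 and 3 and control array 3. Maff and Dusp6 stayed called with any 1 array left out, whereas Fos and Egr1 differed by -0.39 and -0.60 and were not called. Among genes of metals and oxidants, Gclm, of glutathione synthesis, rose by 1.06 ± 0.11 (adjusted p = 0.000872), Mt1, a metallothionein, by 1.07 ± 0.18 (adjusted p = 0.00565), and Sod3, the extracellular superoxide dismutase, fell by 3.15 ± 0.45 (adjusted p = 0.00304). Of that list of 19 genes, 5 rose and 3 fell, and 2 or 3 rose without any 1 of mutant array 1 and control arrays 1, 3 and 4. After centring on the pan-endothelial list 3 rose and 6 fell.

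Guidance genes changed in both directions. Of 29 semaphorins, plexins, ephrins and related genes, 3 rose and 7 fell, where 8.35% and 10.3% of all tested genes did. Sema5a and Sema6d, transmembrane semaphorins, fell by 2.01 ± 0.27 and 1.82 ± 0.22 (adjusted p = 0.00240 and 0.00155), and Sema3g, a secreted semaphorin of arteries, rose by 0.96 ± 0.12 (adjusted p = 0.00164). On an arterial list of 18 genes, 4 rose and 2 fell (1 without any 1 of mutant arrays 1 and 3 and control arrays 1, 2 and 4), among them Bmx, a kinase of arterial endothelium, which rose by 1.82 ± 0.14 (adjusted p = 0.000233), and Alpl, alkaline phosphatase, which fell by 1.20 ± 0.18 (adjusted p = 0.00334). Of 12 genes of the insulin-like growth factor axis, 1 rose and 3 fell (6 fell after the centring). Igf1r fell by 1.06 ± 0.21 (adjusted p = 0.0135) and Igfbp3, a binding protein, rose by 2.29 ± 0.37 (adjusted p = 0.00530).

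Cerebellum arrays of the same genotypes, 4 a group, let the effect in cerebrum be tested against the effect in cerebellum. In cerebellum 1759 genes were called (15.6%). The difference between the effects passed in 13 genes (0.116%), 5 with a more positive and 8 with a more negative difference in cerebrum, while 309 had an unadjusted p under 0.05. Cerebrum and cerebellum arrays of the same number deviated together from their group means, and with that number as a block 29 genes passed. Leaving out 1 cerebrum array at a time gave 6 to 14, with 6 without mutant array 2, 7 without mutant array 1 and 8 without mutant array 4.

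Several of those 13 were genes near the floor in cerebellum, where no fall could be measured. Alx1, a homeobox factor, fell in cerebrum by 2.89 ± 0.34 (adjusted p = 0.00125), while the cerebellum means were 2.18 in mutants and 2.17 in controls. Its difference of effects was -2.89 (adjusted p = 0.00262). St6galnac5, a sialyltransferase, was at its lowest value on all 4 mutant cerebrum arrays, against 4.45, 3.94, 4.73 and 4.01 on the control arrays, and had cerebellum means of 2.16 in mutants and 2.16 in controls (difference -2.12, adjusted p = 8.92e-05). Chst2, a sulfotransferase, fell by 2.46 ± 0.21 in cerebrum and had -0.65 in cerebellum (adjusted p of the difference 0.0363). Grm7, a glutamate receptor, had -2.45 in cerebrum and -3.84 in cerebellum (adjusted p of the difference 0.0202). For Abcc9 the effects in cerebrum and cerebellum were -4.82 and -4.42, and for Kcnj8 -4.68 and -4.61. Their differences of -0.40 and -0.07 were not called. List medians in cerebrum and cerebellum were -3.08 and -2.98 for pericyte genes and -1.56 and -1.03 for smooth muscle genes. Those of mural calcium genes were -1.96 and -1.36. Smooth muscle genes that fell numbered 16 in cerebrum and 9 in cerebellum, and 0 genes of these lists had a called difference of effects.

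The cerebrum effect was also tested against that of another model, in which both Pdgfb alleles lack the stretch that keeps PDGF-B attached near its source (ret mutants, 4 arrays, against heterozygous ret controls, 4 arrays). The ret labels name no brain region and give ages of 7 or 10 months for mutants and 8 or 10 months for controls. They give 3 females and 1 male among ret mutants and 1 female and 3 males among ret controls. The models share no arrays. In the ret model 1870 genes were called (16.6%), and the difference between the models passed in 376 genes (3.34%), 188 in each direction. The count was 133 with sex as a covariate and 102 with the pituitary covariate, 176 without mutant array 1, 611 without mutant array 4, 226 without control array 1 or 2, and 243 without control array 3.

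The Pdgfb transcript was bright in both ret groups, with means of 12.17 in ret mutants and 11.85 in ret controls (difference between models -7.00, adjusted p = 0.000808). Of 16 clock genes, 1 differed between the models. Ciart changed by 2.01 in R26P cerebrum and by -1.04 in ret (difference 3.04, adjusted p = 0.0373), Dbp by 1.94 and -0.60 (adjusted p = 0.0719), and Arntl by -1.30 and 0.50 (adjusted p = 0.139). Of these, the difference of Ciart passed. Slco2a1 rose in R26P cerebrum and had -0.72 in ret (difference 2.07, adjusted p = 0.0380). Gng2, a G protein gamma subunit, fell by 2.50 ± 0.32 in R26P cerebrum (adjusted p = 0.00181) and had 0.86 in ret (adjusted p of the difference 0.000808). Other leading genes had like values in the models. Abcc9 changed by -4.82 in R26P cerebrum and -4.96 in ret, Angpt2 by 3.09 and 3.35, Cdh26 by 7.75 and 6.42, and Bmp6 by 4.37 and 4.95, with none of these 4 differences called. Among pericyte genes 3 of 21 differed. Grm3 changed by -5.85 in R26P cerebrum and -4.19 in ret, and Pla1a by -5.61 and -3.94 (adjusted p of the differences 0.0105 and 0.00229). Mutant means of Grm3 were 2.66 in R26P cerebrum and 3.04 in ret, and those of Pla1a 2.39 and 2.29. Control means were 8.51 and 7.22 for Grm3 and 8.00 and 6.23 for Pla1a. With mutants near the floor in both models, each fall is bounded by its control level. Among the largest rises, Epha3 had 4.71 and 0.97 (adjusted p of the difference 0.0997), and Bmp2 2.56 and 0.88 (adjusted p of the difference 0.0655).

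Some genes near Pdgfb on its chromosome fell too. Of the 20 tested genes nearest to Pdgfb on chromosome 15, 10 on each side in a window chosen after the values were seen, 6 fell and 0 rose, whereas 10.3% of all tested genes fell. Cbx7, a Polycomb protein whose gene is next to Pdgfb on one side, had 8.81, 7.84, 8.38 and 6.67 in mutants, against 10.21, 10.33, 9.73 and 9.69 in controls, a fall of 2.06 ± 0.43 (adjusted p = 0.0153). On the other side the nearest tested gene, Syngr1, differed by -0.68 and was not called (adjusted p = 0.280). Beyond it Mgat3, a glycosyltransferase, fell by 1.46 ± 0.20 (adjusted p = 0.00247), and Tab1, an adaptor of the kinase TAK1, by 1.15 ± 0.20 (adjusted p = 0.00643). Tnrc6b, Cbx6 and Mief1 fell by 1.01 ± 0.25, 0.71 ± 0.21 and 0.46 ± 0.11, and each of these 3 calls was lost when any 1 of 4 to 6 arrays was left out. In cerebellum 5 of the 20 were called, all lower. In ret mutants 1 was called, Cbx6, higher by 0.37. The cause of these differences was not tested. In 2 genes, Cbx7 and Cbx6, the R26P cerebrum effect differed from the ret effect (adjusted p = 0.0364 and 0.0286).

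**Figure D5:**
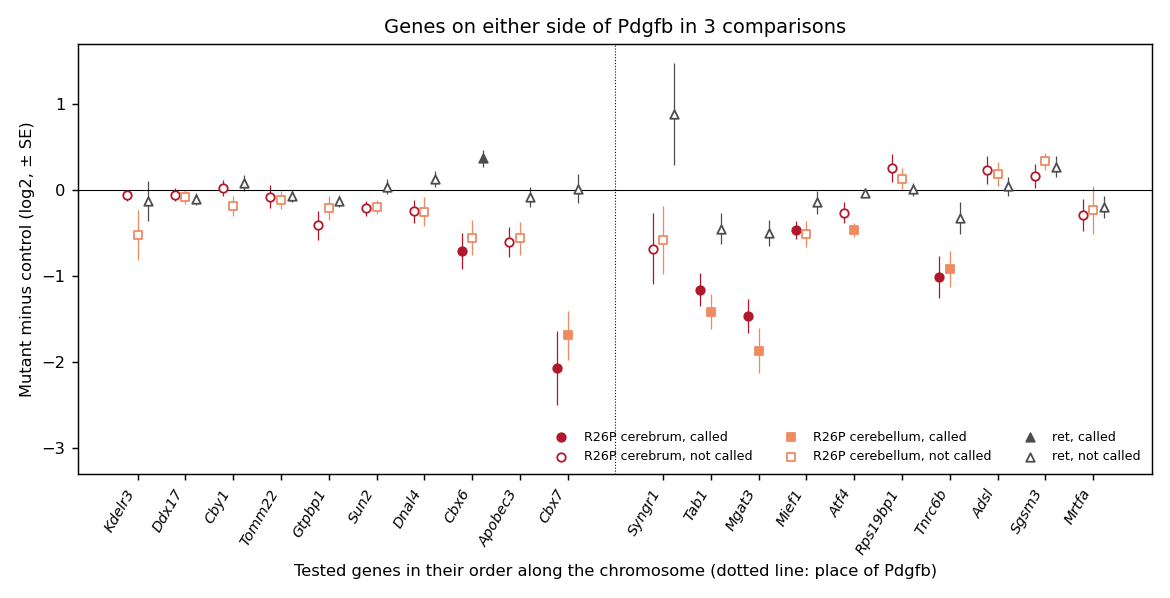
Mutant minus control difference (log2, bars ± SE, n = 4 arrays a group) of the 20 tested genes nearest to Pdgfb, in their order along chromosome 15, in R26P cerebrum (circles), R26P cerebellum (squares) and ret mutants (triangles); filled symbols are called genes. Cbx7, Tab1, Mgat3 and Tnrc6b are lower in both R26P regions, and the ret values of those 4 genes are not called.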

How the data were processed

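RNA of brain vessel fragments had been amplified in small-sample format, labelled with biotin and hybridised to Affymetrix Mouse430_2 arrays, 1 array a sample, per the labels' protocols. The deposited values are log2 signals that the authors made with GCRMA 2.6.0 under R 2.4.1, per the submitters' processing notes, and they were used as they stand. GCRMA subtracts background by sequence and equalises distributions between arrays, so a shift shared by most genes would be hidden and dim probe sets collapse onto a floor. The R26P and ret arrays share a lowest value of 2.16, and 6 wild-type arrays, not compared here, have 2.17.

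Of 45101 probe sets, 34958 name 1 gene in the platform annotation, 932 several and 9211 none. Each gene was represented by its brightest probe set, judged by its mean signal over all 30 arrays, control probe sets left out, which gave 18193 genes. Genes above 4 on at least 3 of the 30 arrays were tested (11242). Groups came from array titles, which call the replicates biological. The labels do not say that each array is a separate mouse, so p-values measure the spread between these arrays, whose small number limits the precision. limma 3.58.1 in R 4.3.3 was run on the 8 cerebrum arrays, and differences of effects were fitted on 16 arrays. Cerebrum and cerebellum arrays of the same number, which the titles give, correlated at 0.479 to 0.84 in their deviations from group means, each best with its own number.

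Tested on simulated data of the same size, the comparison of mutants with controls recovered 34%, 66%, 92% and 100% of genes changed by 0.5, 1, 2 and 4 log2 units, with 7.01% of calls false. Changed genes, 50 at each size, were drawn from bright ones, and noise was independent between genes and arrays. Changes in dim genes and arrays that deviate together were not simulated. Genes were named as the largest non-overlapping falls and rises, the leading called members of each list, the largest differences of effects, and a fixed set of marker genes. Of 172 named in the text, 47 fell outside these rules and were picked once their values were known. The members and lists were chosen with earlier results of these data known. Alternatives were other filters, probe set rules, scalings, priors, covariates, a replicate block and leaving out arrays. Promoters are RefSeq's, build GRCm38.p6.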

Additional observations from a re-analysis of the deposited data

Results flagged for a closer look

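Among the 4 arrays of each group, single arrays stood well apart from the other 3 in 25 of the 344 groups examined, 2 groups for each of 172 genes. Apart means that the gap to the nearest array, as a share of the group's range, passed Dixon's 95% critical value, and chance alone puts about 1 group in 20 past it. Mutant array 4 was apart for leukocyte genes, highest for Plac8 (11.28) and Ptprc (12.52), and also highest for Apoe (15.16) and lowest for Ano1 (7.88). Mutant array 3 was highest for Cd248 (4.61), Angpt1 (6.97) and Tgfb3 (9.75). Mutant array 2 was lowest for Pla1a (2.26, near the floor) and Slco3a1 (5.99). Mutant array 1 was highest for 5033404E19Rik (2.71, near the floor) and Ptprz1 (5.02) and lowest for Pecam1 (9.24).

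Among controls, array 2 was highest for Dbp (12.97) and Notch3 (12.23) and lowest for 5033404E19Rik (7.67), Ccl2 (4.04) and Igf1r (12.35). Control array 1 was highest for Kcnma1 (5.89) and Cd247 (2.38, near the floor) and lowest for Apoe (14.23) and Gbp2 (12.46). Control array 3 was highest for Nos3 (13.29), Treml4 (2.76) and Itgal (2.21), the last 2 near the floor, and control array 4 was lowest for Adm (9.10).

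The effect in cerebrum differed from that in cerebellum, by limma's test of the difference, in 5 genes named in the report. The difference of effects was -2.89 for Alx1, -2.12 for St6galnac5, -1.81 for Chst2, 0.98 for Cd247 and 1.39 for Grm7. Alx1 and St6galnac5 sat at the floor in both cerebellum groups, so a fall there could not be measured and their differences are those of the cerebrum alone. Cd247 rose by 2.45 in cerebrum and had 1.47 in cerebellum.

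The R26P cerebrum effect differed from the ret effect, by the same kind of test, in 22 genes named in the report. It was more negative in R26P cerebrum for Pdgfb (-7.00), Gng2 (-3.36), Alx1 (-2.72), St6galnac5 (-2.11), Mlc1 (-2.09), Cbx7 (-2.08), Lamc1 (-1.93), Pla1a (-1.67), Grm3 (-1.66), Lrp1 (-1.45), Sema5a (-1.43), Dusp6 (-1.28), Cbx6 (-1.08), Itgav (-0.87) and Slc1a2 (-0.81). It was more positive for Ciart (3.04), Slco2a1 (2.07), Smad6 (1.90), Cdc20 (1.29), Cd247 (1.04), Sema3g (0.90) and Gclm (0.67). Smad6 rose by 2.28 in R26P cerebrum and had 0.37 in ret mutants, and Grm3 fell in R26P cerebrum by 5.85 and had -4.19 in ret mutants. Grm3 and Pla1a were near the floor in the mutants of both models, so their falls are bounded by their control levels.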

How the results depend on the processing

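The count of genes called between R26P mutants and controls in cerebrum, 2097, became 1390 with no filter on dim genes, where 18193 genes were tested, 1278 with the replicate number as a block, and 237 without the 4 arrays bright for pituitary transcripts, which leaves 2 arrays a group. Leaving out 1 array gave 1388 to 1944. Same-numbered mutant and control arrays correlated in their deviations at -0.14 to 0.337, and not every array did best with its own number, so the block rests on numbers shared only by name. The 13 genes with different effects in cerebrum and cerebellum became 6 with no filter, 29 with the block, 7 without the pituitary-bearing arrays and 6 to 14 with 1 array left out. The 376 genes that differed from ret became 177 with no filter, 596 with all 24 arrays in 1 fit, 133 with sex as a covariate, 239 with the block, 102 with the pituitary covariate, 88 without the pituitary-bearing arrays and 176 to 611 with 1 array left out. The pituitary alternatives were added after seeing the data, and where a setting changes neither the genes nor the arrays used the cause was not tested. Of 277 called genes named by rule or in the text, 72 kept the call and direction under every alternative run for them and 205 lost the call in at least 1. Of 62 others, 13 were called in at least 1. Averaging all probe sets of a gene reversed 2 genes, Xaf1 (0.73 in the report's setting, -0.16 in this one) and Acvrl1 (-0.06 and 0.30). It also lost other calls, among them those of Mt1, Igf1r, Itga1 and Adgre4, so sizes given for 1 probe set need not hold for the gene's others. Genes near the floor of 2.16 have compressed differences, which limits what can be said of dim genes.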
